A study of Lotus japonicus with 10 samples.

Results

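Cinnamate 4-hydroxylase (C4H) is a cytochrome P450 of the CYP73A family. It adds a hydroxyl group to trans-cinnamate and gives p-coumarate, which makes it the second enzyme of phenylpropanoid metabolism, after phenylalanine ammonia-lyase (PAL) and before coumarate CoA ligase. The p-coumaroyl-CoA formed by these enzymes feeds lignin and other phenolics and, through chalcone synthase, the flavonoids and isoflavonoids, among them the isoflavonoid phytoalexins that legumes make during defence. All array names beginning with C4H and a digit, or with CYP73A, were taken as members, whatever their values. This gave 10 names (5 C4H and 5 CYP73A) with 20 probes, or 6 of the 3082 targets on the array. At 4 loci the same locus stood under both a C4H and a CYP73A name, so these names were read as 1 gene with 4 probes. They are C4H01_chr5.LjT24B10.30.nc, C4H03_LjSGA_082453.1, C4H04_LjSGA_029001.1 and C4H05_LjSGA_031602.1, called C4H01, C4H03, C4H04 and C4H05 below, each with a CYP73A name such as CYP73A_LjSGA_031602.1. C4H02_LjSGA_003295.2 (C4H02) and CYP73ALT_ntc (CYP73ALT), whose name gives no locus, had 2 probes each. The names are those of the array's design, and 0 of them were symbols among the 40429 genes of the reference table, so none was tied here to a sequence or a genome position.

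The model legume Lotus japonicus, accession MG20, was sampled before and after elicitation with glutathione (GSH), a tripeptide thiol used as an elicitor of defence. Mature leaves of glasshouse plants were detached and shaken in 10 mM GSH at 200 rpm and 28 °C for 3 h (3 arrays) or 6 h (3 arrays), and 4 arrays held unelicited leaves labelled 0 h. The elicited leaves were also detached, submerged and shaken for hours, and no array of leaves shaken without GSH was analysed here, so these conditions and GSH cannot be told apart. The arrays of a group are called biological replicates, with no word on shared plants, and p-values therefore measure the spread between these samples. RNA came from whole leaves, in which a change in the make-up of cells and a change in RNA per cell cannot be told apart. The leaf label could not be checked against markers, since 0 names of the photosynthesis or nodule marker lists were on this focused array.

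Each array carried 5716 probes, of which 2644 to 3805 (46.3% to 66.6%) gave a signal well above background. Precision is limited by the small number of arrays. Values below are log2 signals minus the array's own 75th percentile, so 0 is the level below which 75% of the probes of that array lie. Unelicited replicates 1 and 2 were on slide 1 and the other 8 arrays on slide 2, slide and scan being the same division. Across probes, unelicited arrays correlated at 0.973 (slide 1) and 0.978 (slide 2) and, across slides, at 0.827 to 0.853. Calls of the member probes are therefore also given for slide 2 alone, which holds all 3 groups. On GSH arrays the 99th percentile lay further above the 75th, by 7.59 to 8.03 on the log2 scale at 3 h and by 7.69 to 8.48 at 6 h, against 4.27 to 5.36 in unelicited leaves.

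The comparisons with unelicited leaves ask whether transcripts of C4H genes change during elicitation. All 20 probes were higher in GSH than in unelicited leaves at 3 h and at 6 h, and on each probe every GSH array lay above every unelicited array. At 3 h the log2 fold changes ran between 3.12 and 13.32 with a median of 5.21, beside a median of -0.05 over all 3309 tested probes. At 6 h they ran between 3.11 and 13.24 with a median of 6.08, beside -0.07 over all tested probes. The largest of these belong to probes near background in unelicited leaves. With dim signals set to the lowest well-measured signal of the array, the 20 values lay between 3.02 and 11.43 over both times. With normexp, another background correction, they lay between 2.08 and 9.31. These calls are adjusted p-values under 0.05 from limma, with Benjamini-Hochberg adjustment over all tested probes, and the largest among the 20 was 0.000800 at 3 h and 0.000489 at 6 h. Rises were common on this array: 37.5% of tested probes were called higher at 3 h and 37.5% at 6 h, and 38.3% and 36.7% had every GSH array above every unelicited array. The share depends on the scaling. With a percentile over probes measured on every array, 24.2% and 25.2% were called higher at the 2 times and 50.2% and 50.8% lower, and with array medians 48.1% and 47.0% higher and 25.3% and 28.7% lower. All 20 member probes were called higher under both scalings.

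A probe was tested if all arrays of 1 or more of the groups had it well above background. Only 9 of the 20 probes met this in unelicited leaves too, while 11 were tested through their GSH arrays only. For a probe of the second kind the filter itself favours a rise, so its call is in part set by the filter. Without this filter the 20 probes were called higher too, beside 22.7% of all probes at 3 h and 27.8% at 6 h. The 9 belonged to C4H02 (1 probe), C4H03 (2), C4H04 (2) and C4H05 (4). Among probes well above background on all 10 arrays, 44.4% were called higher at 3 h and 43.7% at 6 h. Rises of more than 4 on the log2 scale were rarer, at 13.3% and 14.3% of tested probes. On slide 2 alone all 20 probes were again called higher at both times, where 38.9% and 38.6% of tested probes were.

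**Figure D1:**
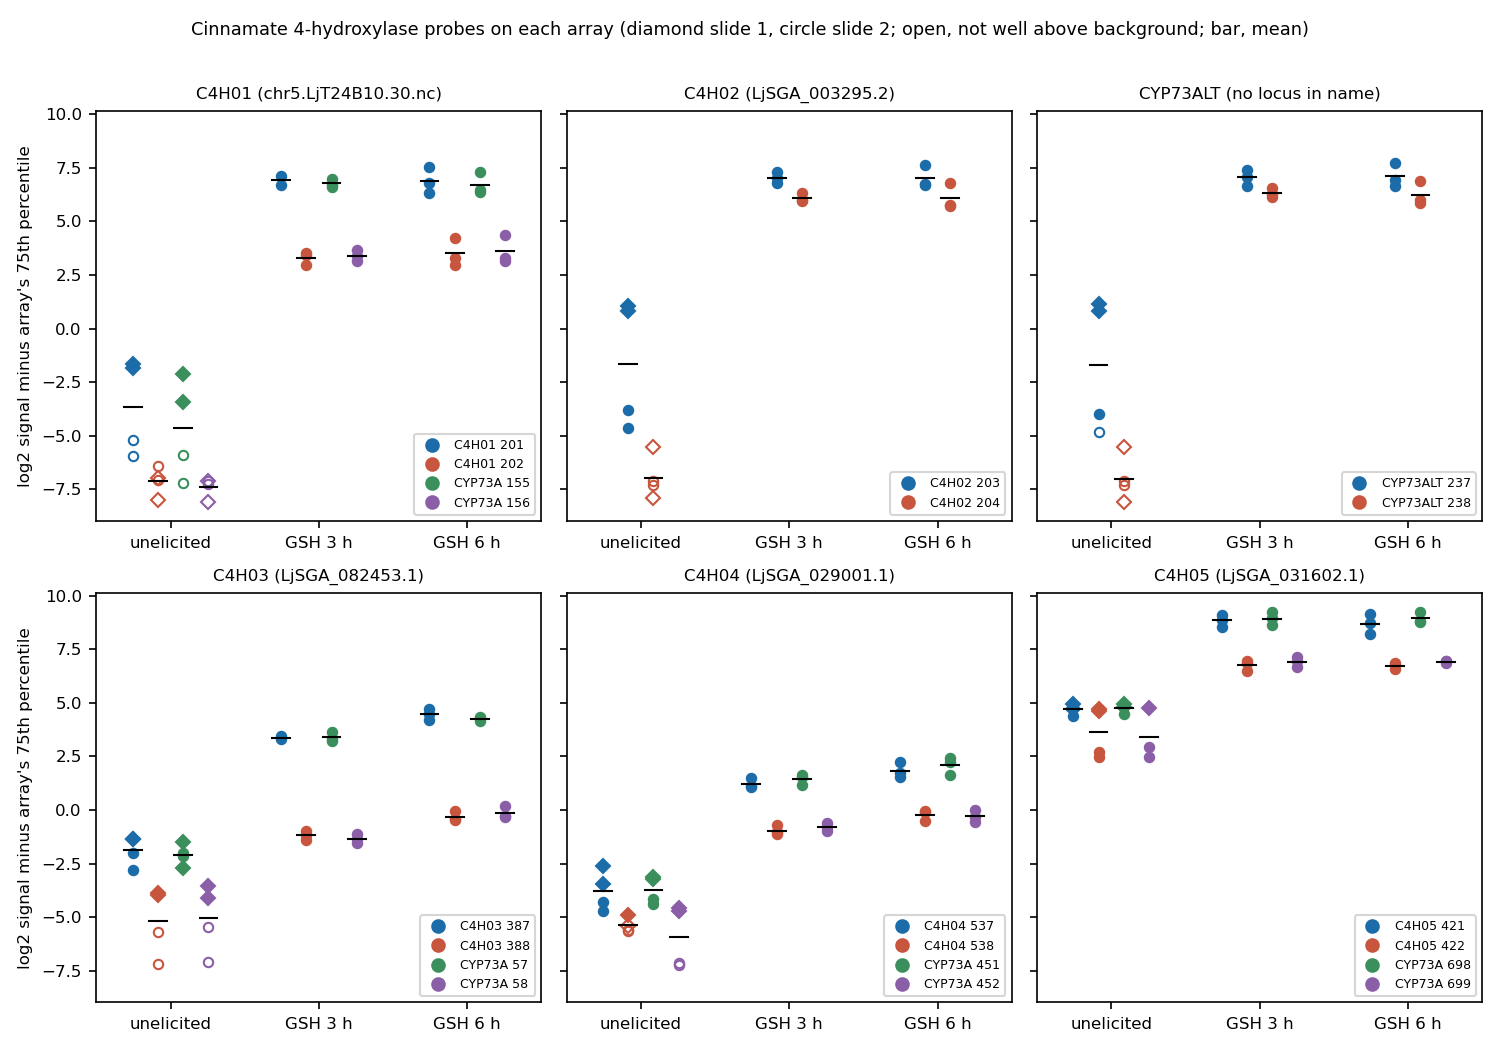
Log2 signal minus the array's 75th percentile (vertical axis) of each probe in unelicited leaves and after 3 h and 6 h of GSH, 1 panel per gene, 1 colour per probe and 1 point per array; diamonds are slide 1, circles slide 2, open symbols are not well above background, bars are group means, and 3 outlier spots are left out. All 20 probes lie higher on every GSH array than on any unelicited array, and unelicited signals of C4H01, C4H02 and CYP73ALT spread widely between slides and probes.

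Fold changes of C4H01, C4H02 and CYP73ALT lay between 8.68 and 13.32 on the log2 scale, and their unelicited signals depended on the probe and the slide. Probe 203 of C4H02 read 1.03, 0.79, -4.66 and -3.80 in unelicited leaves, 7.01, 6.79 and 7.29 after 3 h and 7.64, 6.75 and 6.68 after 6 h. All 4 unelicited arrays measured it above background, with those of slide 1 above the 75th percentile and those of slide 2 far below. Its log2 fold change was 8.69 ± 1.28 (SE) at 3 h (adjusted p = 0.000135) and 8.68 ± 1.28 at 6 h (adjusted p = 0.000128), or 11.26 and 11.26 on slide 2. The 3 h value was 9.59 without unelicited replicate 1, 9.51 without replicate 2, 7.69 without replicate 3 and 7.98 without replicate 4. Among probes well above background on every array of both groups, it had the rank 12 rise of 2262 at 3 h and rank 18 of 2179 at 6 h.

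The second probe of C4H02, probe 204, gave no signal well above background on any unelicited array, at -7.92, -5.53, -7.10 and -7.31. It read 5.99, 5.92 and 6.32 after 3 h and 6.80, 5.69 and 5.76 after 6 h. Here and below, a fold written as at least N-fold sets the GSH mean against the higher, on each unelicited array, of the probe's own signal and the lowest signal well above background. Probe 204 was at least 2342-fold higher at 3 h (adjusted p = 1.91e-08) and at least 2353-fold higher at 6 h (adjusted p = 1.39e-08), with p-values from limma over all probes without the filter. On slide 1, then, unelicited leaves gave a measured signal on probe 203 of C4H02 and none on probe 204.

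CYP73ALT_ntc repeated the values of C4H02 probe by probe. Its probe 237 read 1.16, 0.82, -4.83 and -3.96 in unelicited leaves, 7.09, 6.66 and 7.41 after 3 h and 7.73, 6.92 and 6.64 after 6 h, with the third unelicited array not well above background. Its probe 238 lay at -8.07 to -5.55 on the unelicited arrays, 0 of which measured it well above background, and was at least 2764-fold higher at 3 h and at least 2620-fold higher at 6 h. Over the 10 arrays, probe 237 differed from probe 203 by a root mean square of 0.12 on the log2 scale, and probe 238 from probe 204 by 0.17. Whether both names stand for 1 gene cannot be read from names or signals, so they were kept as separate targets, and comparisons that hold both or either of them are not independent.

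C4H01 had the same shape, with most unelicited signals near background. Probe 155, filed under its CYP73A name, read -3.44, -2.11, -5.88 and -7.22 in unelicited leaves, 6.70, 6.62 and 6.99 after 3 h and 7.28, 6.47 and 6.38 after 6 h. Only the 2 unelicited arrays of slide 1 measured it above background. Its log2 fold change was 11.43 ± 1.00 (SE) at 3 h and 11.37 ± 1.00 at 6 h, or 13.32 and 13.26 on slide 2, where the unelicited values are near the background and the size is not well fixed. Probe 201, filed under the C4H name, was likewise measured in unelicited leaves only on slide 1, at -1.67 and -1.86, and averaged 6.92 ± 0.30 (SD, n = 2, 1 outlier spot left out) at 3 h and 6.87 ± 0.61 (n = 3) at 6 h. Probes 202 and 156 were not well above background on any unelicited array. Probe 202 was at least 340-fold higher at 3 h and at least 393-fold higher at 6 h, and probe 156 at least 363-fold and at least 421-fold higher.

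C4H05 had signals far above the 75th percentile before elicitation already. Probe 698, filed under its CYP73A name, read 4.79, 4.95, 4.85 and 4.47 in unelicited leaves, 8.62, 8.93 and 9.21 after 3 h and 8.84, 9.25 and 8.77 after 6 h. The slide 2 minus slide 1 difference of its unelicited signals was -0.21, and the lowest GSH array lay 3.67 above the highest unelicited array. Its log2 fold change was 4.16 ± 0.26 (SE) at 3 h (adjusted p = 3.61e-07) and 4.19 ± 0.26 at 6 h (adjusted p = 3.19e-07), a 17.8-fold and an 18.2-fold rise. Probe 421, under the C4H name, rose by 4.11 ± 0.30 and 3.97 ± 0.30.

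The other probes of C4H05 depended more on the slide. Probe 422 read 4.73, 4.62, 2.69 and 2.47 in unelicited leaves, 6.48, 6.93 and 6.84 after 3 h and 6.77, 6.83 and 6.60 after 6 h. Its unelicited mean on slide 2 minus that on slide 1 was -2.09, and the log2 fold change was 3.12 ± 0.56 at 3 h and 3.11 ± 0.56 at 6 h over all arrays, or 4.17 and 4.16 on slide 2. Probe 699, with 1 unelicited outlier spot left out, gave 3.52 at each time, or 4.21 on slide 2. On slide 2 the 4 probes of C4H05 thus lay between 4.07 and 4.29 at both times. When quantile normalization, which gives every array the same distribution, replaced the 75th percentile, these 4 probes were 0.46 to 1.16 higher at 3 h (adjusted p = 0.0544 to 0.697) and 0.30 to 1.00 higher at 6 h (adjusted p = 0.155 to 0.802), and 0 of them passed, while 33.6% and 33.4% of tested probes were called higher under it. Their signals lie in the upper range of the arrays, which was wider in GSH leaves as given above, and the part of that width in their rise was not tested.

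All 8 probes of C4H03 and C4H04 lay below the array's 75th percentile in unelicited leaves. Probe 57 of C4H03 read -2.70, -1.50, -2.15 and -1.99 in unelicited leaves, 3.64, 3.32 and 3.22 after 3 h and 4.35, 4.13 and 4.30 after 6 h. All arrays measured it, the slides differed by 0.03, and it rose by 5.48 ± 0.31 (SE) at 3 h (adjusted p = 1.68e-07) and by 6.34 ± 0.31 at 6 h (adjusted p = 6.83e-08), a 44.6-fold and an 81.3-fold rise. Probe 387 of C4H03, under the C4H name, rose by 5.24 ± 0.44 and 6.33 ± 0.39, with 1 outlier spot at 3 h left out. Its dimmer probes 388 and 58 were measured in unelicited leaves only on slide 1. They rose by 4.0 ± 0.70 and 3.71 ± 0.71 at 3 h and by 4.86 ± 0.70 and 4.91 ± 0.71 at 6 h. On slide 2 alone probes 388 and 58 rose by 5.26 and 4.94 at 3 h and by 6.12 and 6.14 at 6 h.

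Probe 451 of C4H04 read -3.22, -3.14, -4.40 and -4.15 in unelicited leaves, 1.65, 1.15 and 1.55 after 3 h and 2.40, 1.65 and 2.24 after 6 h. It rose by 5.18 ± 0.38 (SE) at 3 h (adjusted p = 8.87e-07) and by 5.83 ± 0.38 at 6 h (adjusted p = 3.69e-07), which is 36.2-fold and 56.8-fold. The groups lay 4.29 and 4.79 apart at their nearest arrays. The other 3 probes of C4H04 rose by 4.42 to 5.12 at 3 h and by 5.17 to 5.61 at 6 h. Probes 538 and 452 were measured on 1 and 2 of the unelicited arrays.

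**Figure D2:**
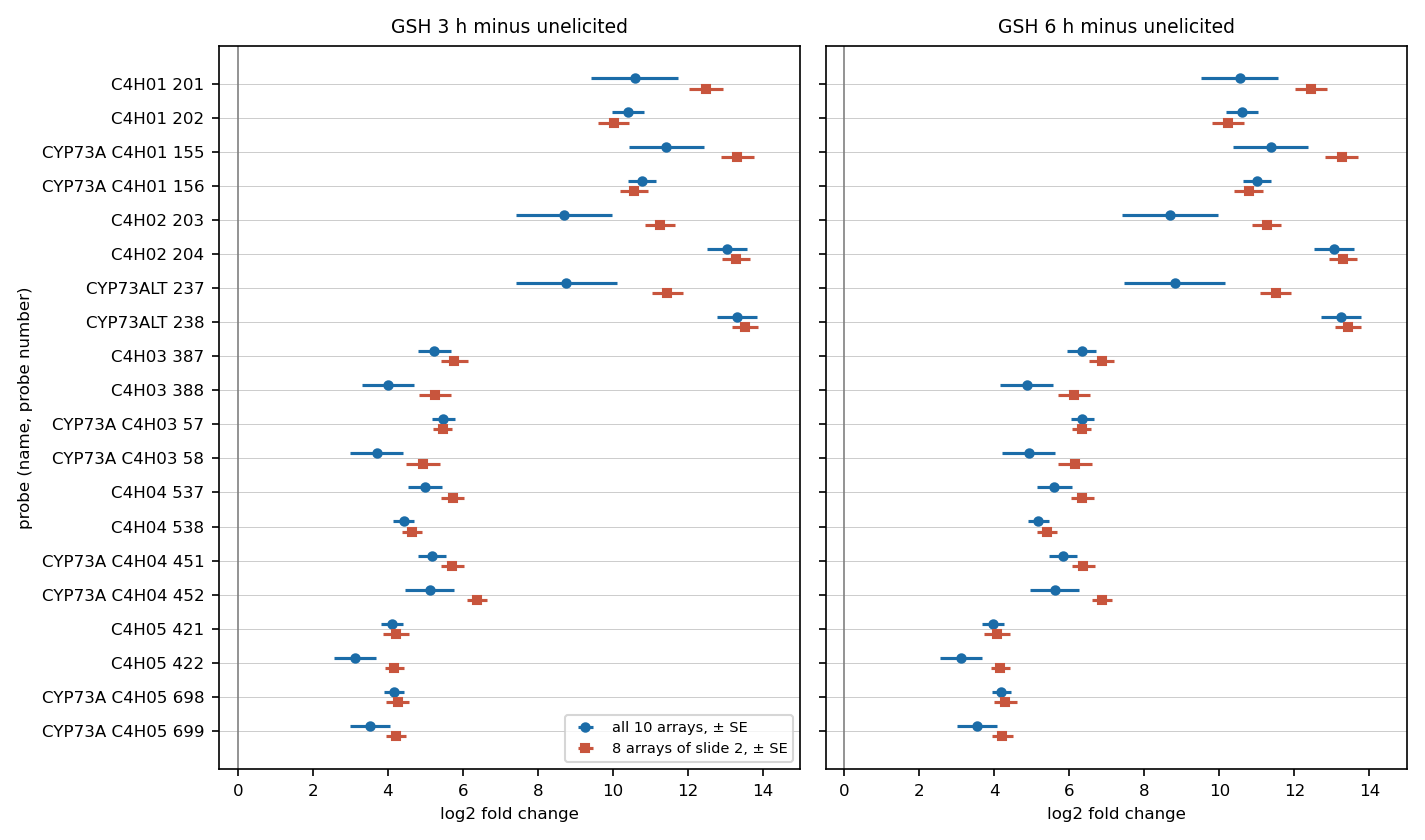
Log2 fold change of each probe at 3 h (left) and 6 h (right) of GSH against unelicited leaves, circles from all 10 arrays and squares from the 8 arrays of slide 2, bars ± SE from limma. All 20 probes lie above 0 at both times; C4H01, C4H02 and CYP73ALT lie between 8.68 and 13.32 over all arrays, and the genes C4H03, C4H04 and C4H05 between 3.11 and 6.34.

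Unelicited values of many of these probes moved with the slide. Unelicited signals were lower on slide 2 than on slide 1 for 17 of the 20 probes, against 50.4% of tested probes. The 17 include probes 204 and 238, which 0 unelicited arrays measured well above background. Probes 202 and 156, likewise measured on 0 of them, went the other way. The 20 are also not independent, since pairs of these probes gave close signals, as given below. For probes 203 and 237 the slide 2 minus slide 1 difference was -5.14 and -5.39, and a difference of 4 or more in size was met by 1.99% of tested probes. With the slide as a block in the fit, or on slide 2 alone, all 20 probes were called higher at both times, with log2 fold changes of 4.07 to 13.51; with the block 40.8% of tested probes were called higher at 3 h and 40.3% at 6 h. Unelicited levels of C4H01, C4H02 and CYP73ALT are thus not fixed by these 4 arrays, and the cause of the slide difference was not tested.

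Whether the genes differed in the size of their response was tested within arrays. Each gene's probes were centred and averaged, and the change of 1 gene's mean minus another's was compared between the 6 GSH and the 4 unelicited arrays with a two-sided exact permutation test. The mean GSH minus unelicited response was 10.83 for C4H01, 10.87 for C4H02, 11.03 for CYP73ALT, 5.08 for C4H03, 5.24 for C4H04 and 3.68 for C4H05, on the log2 scale. Of the 15 pairs of genes, 12 differed with an exact p of 0.00952, the smallest that 210 divisions of the arrays allow, or 0.0119 after Benjamini-Hochberg adjustment over the 15 pairs. Pairs of other genes on the array were not tested in this way. The counts of pairs here and below can therefore not be set against a share over the array. The 12 hold 4 pairs with CYP73ALT, and without that name 8 of the 10 pairs of 5 genes passed (adjusted p = 0.0119 over the 10). The 12 also hold 10 pairs with C4H01, C4H02 or CYP73ALT, whose 8 probes were, for 7 of them, not measured on every unelicited array, so the sizes of these differences rest in part on readings near background.

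The response of C4H01 exceeded those of C4H03, C4H04 and C4H05 by 5.75, 5.59 and 7.14, and that of C4H02 did so by 5.79, 5.63 and 7.18. C4H03 and C4H04 exceeded C4H05 by 1.40 and 1.55. With normexp background correction these last differences were 0.28 (adjusted p = 0.449) and -0.23 (adjusted p = 0.486) by the same exact test, so the place of C4H05 below C4H03 and C4H04 depends on how the background is taken. Responses of C4H01 and C4H02 (difference -0.04, adjusted p = 0.886), of C4H01 and CYP73ALT (-0.20, adjusted p = 0.571) and of C4H03 and C4H04 (-0.16, adjusted p = 0.385) did not pass the exact test, which does not show that they were alike. With normexp the difference of C4H01 and CYP73ALT was -0.82 (adjusted p = 0.0238) and that of C4H03 and C4H04 was 0.51 (adjusted p = 0.0130), both passing the exact test, so these orders also depend on the background correction. C4H02 and CYP73ALT differed by -0.16 and passed, their within-array difference varying by 0.06 (SD) among GSH and 0.04 among unelicited arrays. With each gene's brighter probe alone it was -0.09 (adjusted p = 0.306) and did not pass.

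Background readings limit these sizes. With signals not well above background set to the array's lowest well-measured signal, the responses were 9.45 for C4H01, 9.94 for C4H02 and 10.09 for CYP73ALT, and 4.71, 4.84 and 3.68 for C4H03, C4H04 and C4H05. With normexp the responses of the genes in this order were 7.56, 8.14 and 8.38, and 3.71, 3.20 and 3.43. With each gene's brighter probe in place of the mean of its probes, C4H02 exceeded C4H03 by 2.78 (adjusted p = 0.132) and CYP73ALT exceeded it by 2.87 (adjusted p = 0.131), and neither passed the exact test. That choice also put C4H01 above C4H02 by 1.86 (adjusted p = 0.0216), over the 9 arrays on which its spot was not an outlier. Over probes well above background on all 10 arrays, an alternative chosen after seeing the data, 4 genes and 6 pairs were left, of which 5 passed the exact test, while C4H01 and CYP73ALT had no such probe and could not be compared in this way. C4H02, through probe 203 alone, exceeded C4H03 by 2.85 (adjusted p = 0.0457), C4H04 by 3.29 and C4H05 by 5.0 (adjusted p = 0.0143 each). These differences are smaller than those over all probes, and their unelicited values varied by 2.25 to 2.73 (SD). The 8 arrays of slide 2 cannot give a p under 0.0714 in this test, although on them C4H01 exceeded C4H03 by 5.79.

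The comparison of 6 h with 3 h asks whether the rise went on. No member probe passed in limma (0 of 20, smallest adjusted p = 0.161), where 5.35% of tested probes were called in either direction at an adjusted p under 0.05. At an unadjusted p under 0.05 there were 3 member probes. The share of all tested probes at that unadjusted threshold is not given, so the 3 cannot be set against it. The median change of the 20 probes was 0.13, beside -0.01 over all tested probes. The 8 probes of C4H01, C4H02 and CYP73ALT lay between -0.08 and 0.21 and those of C4H05 between -0.15 and 0.03. Intervals around these small changes were wide where unelicited arrays spread most, since all groups share the fitted variance: for probe 203 the 95% interval was -3.06 to 3.04, and for probe 698 -0.60 to 0.66.

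C4H03 and C4H04 had the larger values. The 4 probes of C4H03 were 0.86 to 1.20 higher at 6 h than at 3 h, and the 4 of C4H04 were 0.50 to 0.75 higher. On 7 of these 8 probes every 6 h array lay above every 3 h array, an order that 18.4% of tested probes showed. The 3 with unadjusted p under 0.05 were probe 57 (0.87, 95% interval 0.14 to 1.59, adjusted p = 0.161), probe 387 (1.09, adjusted p = 0.215) and probe 538 (0.75, adjusted p = 0.175). All GSH arrays were on slide 2. On that slide alone 1 probe was called, probe 57 (adjusted p = 0.0363, with 14.8% of tested probes called in either direction), and with the slide as a block 2 were, probes 387 (adjusted p = 0.0276) and 538 (adjusted p = 0.0481), where 19.9% were called.

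**Figure D3:**
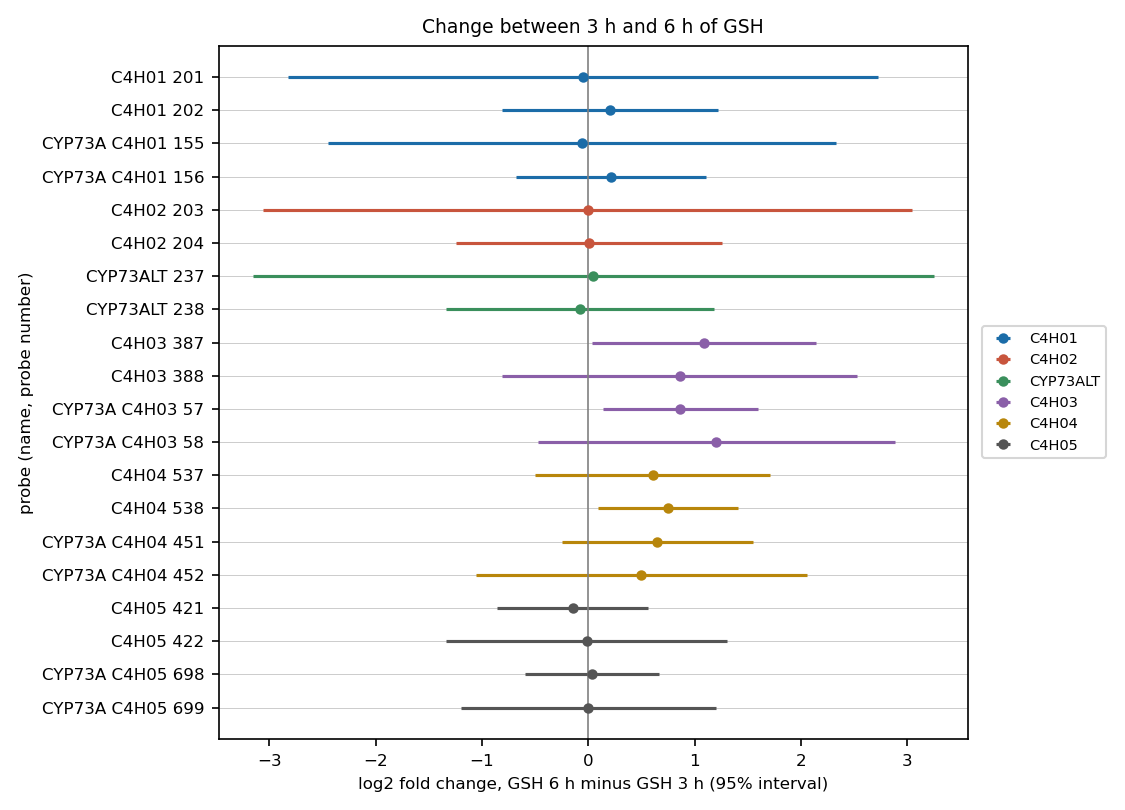
Log2 fold change between GSH 6 h and GSH 3 h for each probe, with its 95% interval from limma over all 10 arrays, coloured by gene. The C4H03 and C4H04 probes lie between 0.50 and 1.20 and the others between -0.15 and 0.21; 0 of the 20 passed after adjustment.

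Both names of a locus carried a pair of probes, which allows the designs to be compared. First probes of both names, and likewise second probes, gave signals closer to each other than a first and a second probe did. Over the 10 pairs of like order, CYP73ALT with C4H02 included, the root mean square difference over arrays was 0.12 to 0.92. A first probe set against a second gave 1.78 to 4.15. Among the pairs of like order the largest difference on a single array was 2.05, for probes 201 and 155. Fold changes at 3 h differed by at most 0.84 within the first kind of pair and by up to 4.63 within the second kind, the largest being probe 203 against probe 238. Probe sequences are not used here, so overlap of the designs was not examined.

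The targets nearest to each gene in pattern were found next. For each gene's brightest probe, the 3 nearest of 1934 other targets were taken by the root mean square difference of centred log2 signals over the 10 arrays, dim signals set to the array's lowest well-measured signal. Brightest here means the highest mean among a gene's probes with no outlier spot. For C4H01 this is probe 155, not probe 201, which was its brighter probe in the exact test. This is a description of 10 arrays that fall into 2 levels, and any target with a like rise scores well. C4H01 lay nearest to IFLGT03_chr4.CM0739.130.nd (0.79), LjNAM24 (0.81) and LjTrihelix7 (0.84), where the median target lay at 5.30. IFLGT03 itself rose by 11.46 ± 0.36 (SE) at 3 h and 11.42 ± 0.36 at 6 h.

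C4H02 lay nearest to LjZF-C2H2-36 (1.10), LjNAM24_est (1.14) and LjNAM24 (1.20), and CYP73ALT to the same names at 1.16, 1.21 and 1.24. LjZF-C2H2-36 had higher unelicited signals on slide 1, at 0.52 and -0.07, than on slide 2, at -4.28 and -4.51. It was chosen by its distance over these same arrays, so a like slide difference is in part built into the choice. On slide 2 alone it was not among the nearest 3 of C4H02 or CYP73ALT. C4H03 lay nearest to LjGRAS17 (0.33), LjWRKY27 (0.44) and VR3_chr1.CM1255.310.nc (0.48), and C4H04 to LjZF-C3HC4-13 (0.37), LjNAM13 (0.37) and LjWRKY30_est (0.38). LjGRAS17 was well above background on 0 unelicited arrays, so all its unelicited values here are the floor. LjNAM24_est and LjWRKY30_est were measured on 2 unelicited arrays each and VR3 on 3, so their nearness also rests in part on the floor. C4H05 lay nearest to LjWRKY12 (0.26), LjERF12 (0.26) and CYP82A_LjSGA_016442.1 (0.27). On slide 2 alone C4H01 and C4H02 both had IFLGT03 and LjNAM24 among their nearest 3, while C4H05 lay nearest to LjERF7 (0.14), UGT74K_LjT17C09.70.nc (0.18) and LjHSF8 (0.20), so single names depend on the arrays used.

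**Figure D4:**
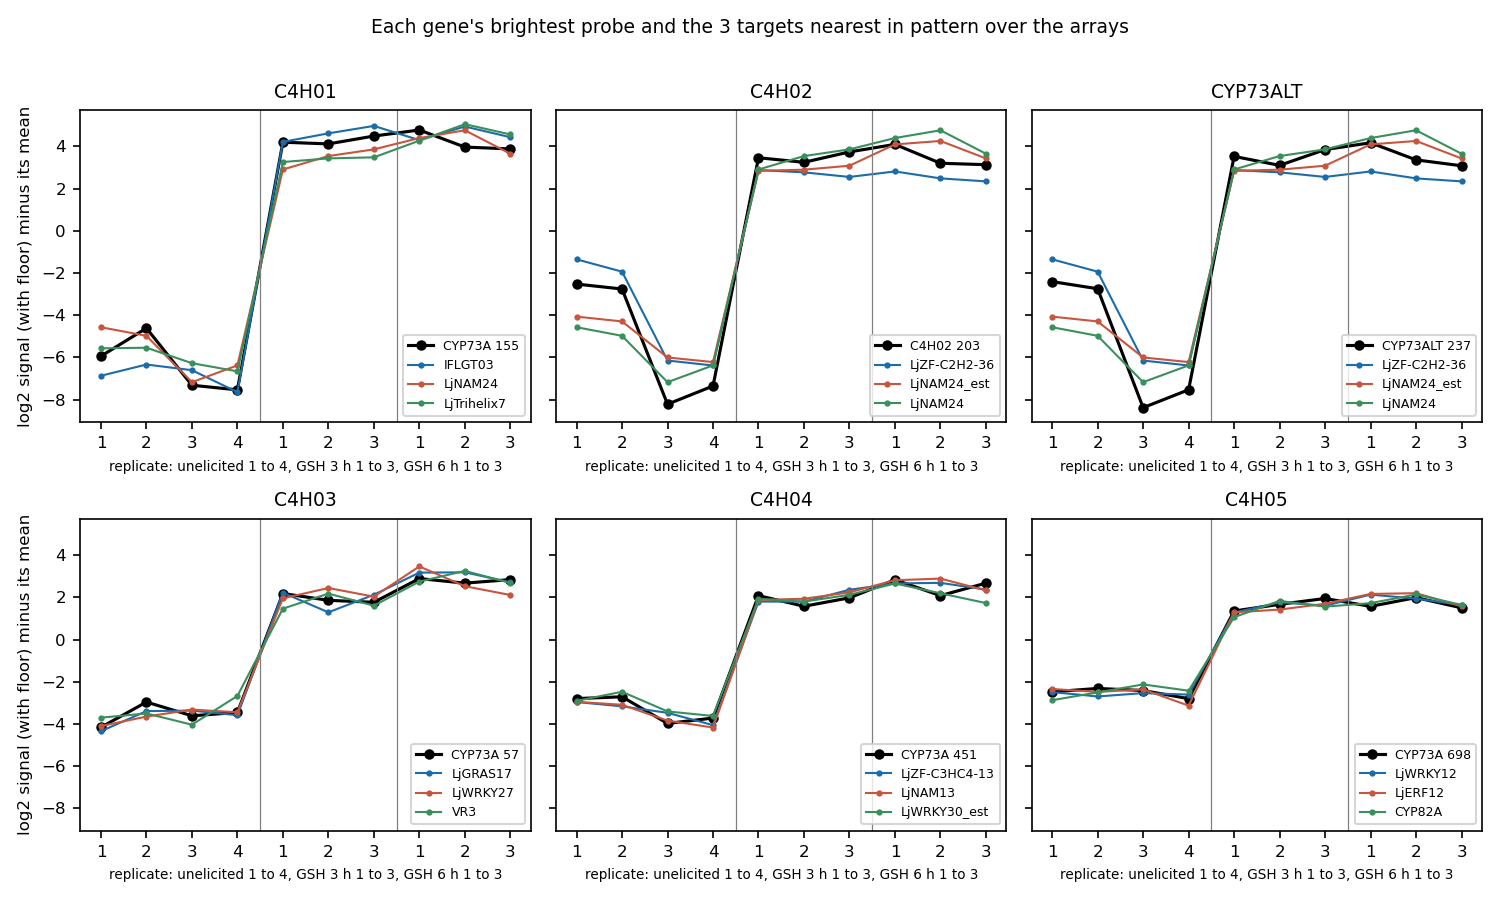
Log2 signal minus its mean over the 10 arrays, with dim signals at the floor, for each gene's brightest probe (black) and the 3 targets nearest in pattern (colours); the horizontal axis gives the replicates of unelicited, GSH 3 h and GSH 6 h leaves. Every line steps up between unelicited and GSH arrays, by more for C4H01 and C4H02 than for C4H05.

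The enzymes around C4H were read from the same fits, on 1 probe per target. Their changes against unelicited leaves are given over both slides only, not for slide 2 alone. PAL, which makes the cinnamate used by C4H, had 14 targets, of which 13 were higher and 1 lower at each time, with medians of 4.36 at 3 h and 3.20 at 6 h, while under quantile normalization 10 were higher at 3 h and 7 at 6 h. PAL12_LjSGA_102693.1 rose most at both times, by 5.44 ± 0.35 (SE) and 4.47 ± 0.35, and PAL09_chr5.LjT17D03.50.nd fell by 4.11 at 3 h and fell by 2.35 at 6 h. Over all 1971 targets tested, 37.4% were higher and 36.3% lower at 3 h, and 36.8% and 37.9% at 6 h. Coumarate CoA ligase, spelt CoumLig on the array, uses the p-coumarate made by C4H and was mixed: of 15 tested targets 7 were higher and 5 lower at 3 h, and 6 were higher and 8 lower at 6 h. Their balance moved with the scaling: with array medians 7 were higher and 2 lower at 3 h, and 7 and 3 at 6 h, while with a percentile over probes measured on every array 5 were higher and 8 lower at 3 h, and 4 and 8 at 6 h. CoumLig16_chr6.CM0057.160.nc rose by 5.80 at 3 h, CoumLig1_chr2.CM0018.1240.nc by 4.86 at 6 h, and CoumLig18_LjSGA_075474.1 fell by 2.16 at 3 h.

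Chalcone synthase names, the branch to flavonoids, were higher for 17 of 26 tested targets and lower for 6 at each time, CHS03_chr3.CM0216.300.nc rising by 6.96 and 6.54 and CHS11_chr1.CM0593.380.nc with changes of -7.0 and -7.56. Other cytochrome P450 targets were more often lower than higher. Of 179 tested CYP targets outside the phenylpropanoid names, 36 were higher and 109 lower at 3 h, and 37 were higher and 105 lower at 6 h, with medians of -1.92 and -2.03. With array medians 47 were higher and 81 lower at 3 h and 44 and 87 at 6 h, and with a percentile over probes measured on every array 21 and 132 at 3 h and 26 and 133 at 6 h. Among phenylpropanoid P450s, 4 of 5 CYP93 targets were higher at each time (2 of 5 under quantile normalization), led by CYP93C_chr4.CM0692.280.nc, of the isoflavone synthase subfamily in legumes, with 7.0 ± 0.93 (SE) at 3 h and 5.92 ± 0.93 at 6 h. The remaining CYP93 target, CYP93E_LjSGA_008809.1, was lower at 6 h by the same test, with a change of -2.54 ± 0.66 (SE). With array medians 0 CYP93 targets were called lower at 6 h, and 4 of 5 were higher at each time. The count of higher CYP93 targets was 3 of 5 at 3 h with normexp. It was 3 of 5 at each time with a percentile over probes measured on every array. CYP98A_LjSGA_096258.1, of the subfamily that hydroxylates p-coumaroyl esters, was higher by 4.43 ± 0.39 and 3.92 ± 0.39. The other of the 2 tested CYP98A and CYP84A targets did not pass at either time, and its call moved with the scaling. The 3 tested CYP75 targets were mixed, with 1 higher and 1 lower at 3 h and 1 higher and 2 lower at 6 h.

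**Figure D5:**
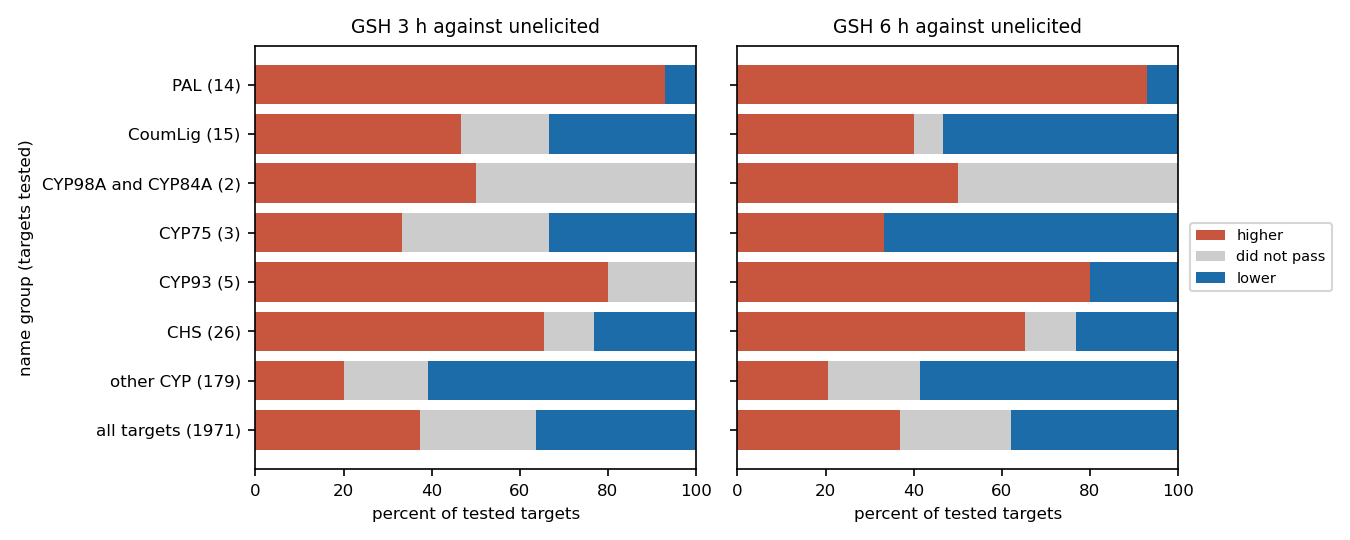
Percent of tested targets called higher, not passing or lower at 3 h (left) and 6 h (right) of GSH against unelicited leaves, for enzyme names around C4H, for other CYP names and for all targets; the number tested is in brackets. PAL is mostly higher (13 of 14), CoumLig is divided, and other CYP names are mostly lower.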

How the data were processed

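Cy3-labelled RNA of 10 leaf samples was measured on Agilent arrays with 1 colour and 1 sample per array. The authors deposited linear spot intensities made with Agilent Feature Extraction (version 10.7.3.1, per the submitters' processing notes). The background had been subtracted and a spatial trend removed, with no normalization between arrays, per the file headers. Groups and replicate numbers came from the sample titles. Here the signal was log2 of the processed intensity minus the array's 75th percentile over probes that are not controls (an intensity of 227.25 to 1022.5). Outlier spots (4 to 64 per array) were left out, and 0 spots were saturated. Group means were fitted over all 10 arrays with lmFit and eBayes in limma 3.58.1 (R 4.3.3), two-sided, with Benjamini-Hochberg adjustment over 3309 probes. Gene pairs were compared with scipy 1.17.1, and figures drawn with matplotlib 3.10.9. The code was tested on simulated data.

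The members, gene lists and tests were chosen with earlier results of these data known. Named are every member probe, the 3 targets nearest in pattern to each gene's brightest probe, and the largest rise and fall of each list of enzyme names, of which the text gives a part. Names ending in the same locus were 1 target. Replicate numbers are shared between groups, but deviations of same-numbered arrays correlated at only -0.04 to 0.06 (9 pairs, 0 over 0.1), so they were not used as pairs in the reported fit. The alternatives covered background correction, the deposited value table, scaling, the filter on dim probes, a floor, the variance model, slide and replicate blocks, slide 2 alone and each array left out, and 1, the gene pairs over probes measured on all arrays, was added after seeing the data.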

Additional observations from a re-analysis of the deposited data

Results flagged for a closer look

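On 1 of the 19 member probes that could be checked, 1 unelicited array stood apart from the others of its group. Probe 156 of CYP73A_chr5.LjT24B10.30.nc read -8.10 on unelicited replicate 1, with the nearest of the other arrays at -7.25, a gap of 0.853 of the group's whole range. None of the 4 unelicited arrays had the probe well above background, so its readings there have no order. Chance alone sets apart about 1 group in 20.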

How the results depend on the processing

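Both counts of 20 probes called higher were 20 under every alternative run except quantile normalization, with 16 at each time, and the filter that kept only probes measured on all arrays, which called 9 of the 9 it tested at 3 h and 9 of 9 at 6 h. With normexp 30.2% of all tested probes were called higher at each time. Each array left out in turn gave 20 to 20 probes at 3 h, 20 to 20 at 6 h, 0 to 0 between the times and 12 to 12 gene pairs. For single arrays left out, the deposited value table, the floor and the variance model, the share of all tested probes called is not given. The member counts there can therefore not be set against it. Of the 429 values of single probes at each time under all the alternatives run, 425 kept direction and call and 0 reversed. The other 4 lost the call, the C4H05 values under quantile normalization given above. Between the times, 2 probes passed with the slide as a block and 1 on slide 2 alone. With a replicate block 20 probes passed at 3 h, 20 passed at 6 h and 0 passed for 6 h against 3 h, so the block changed no member call. The share of all tested probes called with that block is not given, so these counts cannot be set against it. With normexp the response of C4H04 minus C4H05 reversed to -0.230, and 2 pairs that had not passed did, C4H03 minus C4H04 at 0.51 (adjusted p = 0.0130, exact test) and C4H01 minus CYP73ALT at -0.82 (adjusted p = 0.0238). Over probes measured on all arrays, chosen after seeing the data, 5 of the 6 gene pairs left passed. For PAL and CoumLig targets together, 20 were higher at 3 h and 19 at 6 h, against 12 at 6 h under quantile normalization, and 19 to 20 and 17 to 20 with 1 array left out. Their count between the times, in either direction, was 0 of the 14 PAL and 15 CoumLig targets tested, where 5.35% of all tested probes were called. It was 14 with the slide as a block and 11 on slide 2 alone, where 19.9% and 14.8% of all tested probes were called. It was 4 with array medians, 2 with probes measured on all arrays, 1 with trend and robust and 1 with the floor. With 1 array left out it was 0 to 4 (4 without unelicited replicate 3). For these other settings the share of all probes called is not given, so their counts cannot be set against it, and the causes were not tested. Scaling moved the median of all probes at 3 h and 6 h to -1.11 and -1.13 with a percentile over probes measured everywhere, to -0.18 and -0.25 with quantiles, to 0.90 and 0.81 with array medians and to 0.30 and 0.04 with normexp, and the 4 C4H05 losses were the only member calls that these scalings ended. Signals near background limit the sizes of the 11 probes not measured on every unelicited array.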
